A study of Mus musculus with 8 samples.

Results

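The beta thymosins and the ILK-PINCH-parvin complex were followed here through 8 mouse genes, chosen by name: the beta thymosins Tmsb4x and Tmsb10, the integrin-linked kinase Ilk, the PINCH adaptors Lims1 and Lims2, the parvins Parva and Parvb, and the kinase Akt1. All 8 were found in the mm9 gene annotation, out of 37273 annotated genes on the 21 chromosomes of the list. For each gene, the regions listed as enriched for BRG1 in injured hearts were placed over the gene body with 5 kb on each side, and over the 5 kb on each side of the transcription start site (TSS, the 5′ end of the annotated gene). BRG1 is a catalytic (ATPase) subunit of SWI/SNF complexes, which use ATP to move nucleosomes.

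Beta thymosins are small peptides that hold actin as monomers, and thymosin β4 (Tβ4), the product of Tmsb4x, is also given as a treatment in heart injury because it stimulates the epicardium. ILK, a pseudokinase, binds a PINCH protein and a parvin, and the resulting IPP complex couples the tails of integrins to the actin cytoskeleton at focal adhesions. Tβ4 is known to associate with PINCH and ILK in heart cells, and the serine/threonine kinase AKT lies downstream of this association.

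The libraries came from hearts of adult mice, C57BL/6 and aged 10 to 12 weeks by the labels, with no genetic modification named there. The study's methods name the J substrain for primed wild-type mice and give a somewhat older age range for infarction experiments. Hearts of the Tβ4 group came from day 4 after a myocardial infarction, for which the left anterior descending artery was closed for good. Doses of 12 mg Tβ4 per kg went into the peritoneum, daily over the week before surgery and again on days 0 and 2. Chromatin from these Tβ4-primed, injured hearts gave 2 BRG1 ChIP libraries and 2 input libraries (sonicated chromatin without immunoprecipitation), and a single deposited list gives the regions of BRG1 over input for this treatment, though the exact call behind it is not known. The series also holds 2 ChIP and 2 input libraries from PBS-primed, injured hearts, which were not analysed here, so no value below compares Tβ4 with its vehicle.

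The list holds 524614 regions with a median length of 600 bp and covers 25.8% of the genome. It carries no height, p-value or replicate, and the depth behind each region is unknown, so no spread between the 2 ChIP libraries could be set beside any value and every comparison below is a description of this one list. The chromatin was from whole hearts, and binding in few cells cannot be told apart from weak binding in many. Covered share is the percent of the bases of a window that lie inside regions. Each gene's covered share was placed among the 200 annotated genes nearest to it in length, as a percentile from 0 to 100.

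The 8 genes differed widely in their coverage. Ilk was almost filled with BRG1 regions, and the 3′ flank of Tmsb4x and the start of Lims1 were richly covered. The starts of Parva and Akt1 lay in long stretches without a region. The median covered share of the gene bodies with 5 kb flanks was 23.4% over the 8 genes and 24.0% over all annotated genes. For the TSS windows, the medians were 29.0% and 21.5%. By comparison with genes of like length, 4 of the 8 genes were above the median in the gene body window and 4 of the 8 in the TSS window, with median percentiles of 40.5 and 60.6. The TSS count depended on the setting. It was 1 by regions per kb, and 6 by covered share within 1 kb of the TSS. Covered share above that of the genome was found for 3 of the 8 gene body windows, where 45.9% of all annotated genes passed this level, and for 4 of the 8 TSS windows, where 43.3% did.

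**Figure D1:**
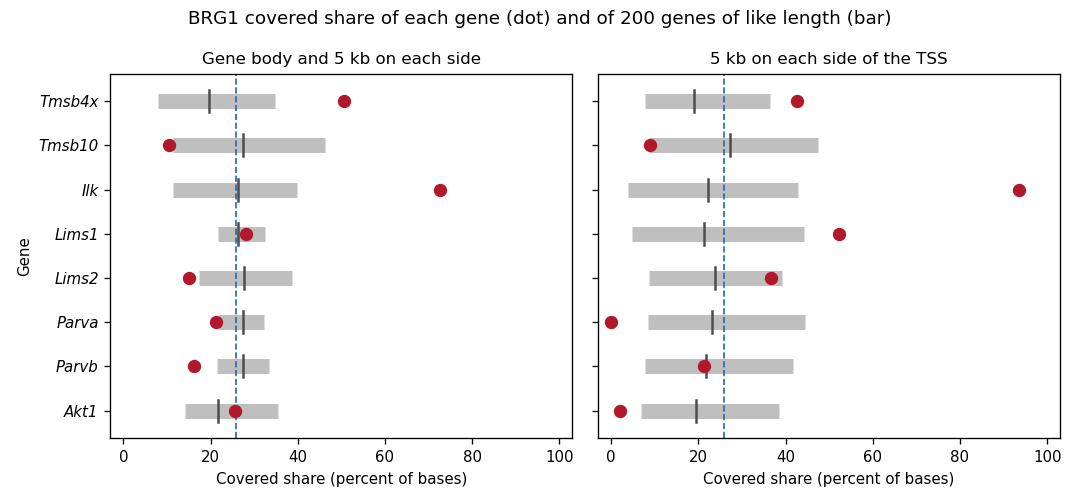
Covered share (percent of bases in BRG1 regions) of each gene as a red dot, for the gene body with 5 kb flanks (left) and for 5 kb on each side of the TSS (right). Grey bars run from the lower to the upper quartile of the 200 genes nearest in length, with their median as a dark line, and the dashed line is the covered share of the genome, 25.8%; Ilk stands at 72.7% and 93.5%, and Parva at 0% around its TSS.

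BRG1 regions lay directly on the TSS of 2 of the 8 genes, Ilk and Lims1. Among all annotated genes 24.7% had a TSS inside a region. At least 1 region was within 5 kb of the TSS in 7 of the 8 genes, Parva being the exception, and in 89.9% of all annotated genes. Both counts of the 8 genes are near these background shares. The 8 genes have 24 distinct 5′ ends of protein-coding transcripts, of which 7 were inside regions, and these 7 belonged to Ilk (4 of 4) and Lims1 (3 of 5). No share over the coding transcript starts of all genes was set beside this count.

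Tmsb4x, on the X chromosome at chrX:163645025-163647247 on the minus strand, had 5 regions within its window of 12223 bp. They covered 50.6% of the window, at the 88th percentile of genes of like length, and 42.7% of the TSS window, at the 82nd percentile. Closer to the TSS the covered share was lower and near the median of those genes, with 17.6% within 2 kb (percentile 54) and 12.0% within 1 kb (percentile 51.5). The gene body alone was covered to 30.8%, and with flanks of 10 kb the share was 29.0%. The chromosome as a whole was covered to 23.6%. Most of the coverage of Tmsb4x came from a single region of 5100 bp, which started at +1808 bp from the TSS, took in the last 415 bases of the gene and ran on to +6907 bp. This region was longer than 96.0% of all regions. The 5 kb downstream of Tmsb4x were covered to 93.7%, against 16.2% of the 5 kb upstream.

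The start of Tmsb4x itself was free of regions for 1470 bp. On its upstream side the nearest region ran from -682 to -443 bp (240 bp), and on its downstream side from +1028 to +1297 bp (270 bp), over an intron and 34 bases of a coding exon. None of the 3 annotated starts of coding transcripts was covered. A pair of further short regions, of 270 and 300 bp, lay between -3982 and -3143 bp. The 250 bases before the Tmsb4x TSS are shown with the nearest upstream region, because they place an uncovered promoter beside a covered stretch of the same flank. Both lie outside exons and are read 5′ to 3′ on the minus strand of mm9, at chrX:163647248-163647497 for the promoter and at chrX:163647690-163647929 for the region. Capitals mark GGGCGG on either strand, the GC box that Sp-family factors recognise.
Tmsb4x promoter: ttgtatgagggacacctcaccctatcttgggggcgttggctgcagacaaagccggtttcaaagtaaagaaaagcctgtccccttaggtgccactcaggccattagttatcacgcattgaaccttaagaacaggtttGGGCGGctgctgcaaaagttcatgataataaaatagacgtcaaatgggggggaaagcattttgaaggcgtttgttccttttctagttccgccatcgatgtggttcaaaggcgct
Tmsb4x nearest region: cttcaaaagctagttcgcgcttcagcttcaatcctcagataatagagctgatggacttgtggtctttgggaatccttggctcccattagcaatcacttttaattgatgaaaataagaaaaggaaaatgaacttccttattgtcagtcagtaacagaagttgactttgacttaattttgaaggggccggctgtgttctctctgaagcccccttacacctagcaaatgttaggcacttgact

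Tmsb10, which encodes the other widely expressed beta thymosin, lies at chr6:72907341-72908742 on the minus strand. It had the lowest covered share of the gene body windows among the 8 genes, 10.5%, at the 24th percentile. A region of 900 bp lay over most of the small gene, from +493 to +1392 bp, with 640 of its bases in exons and 132 in coding sequence. The gene body alone was therefore covered to 64.2%, while the 5 kb upstream held no covered base. With the flanks left out, Tmsb10 was at the 72nd percentile. Its TSS was inside a stretch of 8700 bp without a region, longer than 88.0% of the gaps between neighbouring regions of the list. The other region of the window, 300 bp long, was at +5023 to +5322 bp, inside the body of the noncoding neighbour Gm17554.

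The exons of Tmsb10 are not unique in the genome. Its longest coding transcript matched 2 other places at 95% identity or more over at least 50% of its length, with up to 99.0% identity, and no region touched either place. For the other 7 genes no such place was found. Only the longest coding transcript of each gene was searched. In Tmsb4x it has 864 bp and begins with an exon, at +488 to +992 bp, that the other coding transcripts lack. A copy of those other transcripts could miss the 50% level, so the search cannot show that Tmsb4x has no copies elsewhere. Reads with more than 2 placements had been left out of the alignment, and the part of this in the Tmsb10 values was not tested. The uncovered 250 bases before the Tmsb10 TSS, at chr6:72908743-72908992 on the minus strand of mm9, are shown as the counterpart of the Tmsb4x promoter, with GGGCGG on either strand in capitals.
Tmsb10 promoter: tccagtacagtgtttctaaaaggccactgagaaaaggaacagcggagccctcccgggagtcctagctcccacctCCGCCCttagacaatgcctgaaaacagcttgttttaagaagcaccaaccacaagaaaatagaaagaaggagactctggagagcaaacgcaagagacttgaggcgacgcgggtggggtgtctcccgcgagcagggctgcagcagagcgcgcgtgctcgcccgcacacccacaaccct

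Both beta thymosin promoters thus held 1 GC box, and they differed in base composition, with a GC content of 47.6% in Tmsb4x and 56.8% in Tmsb10. No copy of TTGCNNAA (a core of C/EBP sites) or TATAAA (the TATA box) on either strand, and no CArG box, which serum response factor recognises, was found in either. Among the 22362 promoters of protein-coding genes cut in the same way, 39.6% held GGGCGG, 9.16% held TTGCNNAA, 12.3% held TATAAA and 1.34% held a CArG box.

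**Figure D2:**
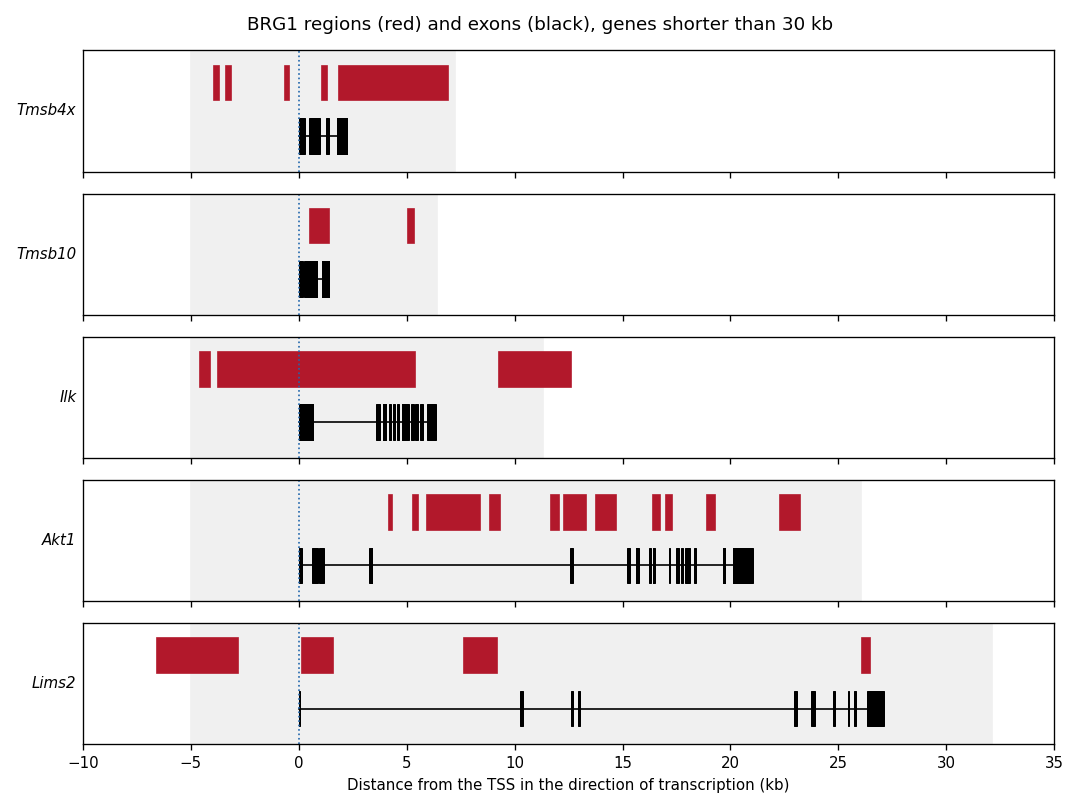
BRG1 regions (red, upper row) and exons of coding transcripts (black, lower row, joined by a line for the gene body) of the 5 genes shorter than 30 kb, by distance from the TSS in kb in the direction of transcription. Grey marks the gene body with 5 kb on each side and the dotted line the TSS; a region of 9210 bp spans the start of Ilk, while the start of Akt1 is free of regions to +4116 bp.

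Ilk, the hub of the IPP complex, had the highest covered share of the 8 genes in both windows. It lies at chr7:112885106-112891439 on the plus strand, and a single region of 9210 bp, chr7:112881300-112890509, ran from -3806 to +5403 bp across its TSS. This region was longer than 99.4% of all regions. It held all 4 starts of coding transcripts, 1585 exon bases and 1036 coding bases, and covered the whole 5′ part of the gene up to its midpoint. Of the 13 separate exon blocks of Ilk, 10 were fully inside it. The remaining gap was at the 3′ end of the gene, 930 bp long.

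The covered share of Ilk was 72.7% with flanks, at the 99th percentile of genes of like length, and 93.5% around the TSS, at the 99.5th percentile. Among all annotated genes its TSS window was at a percentile of 99.3. A wider window, 10 kb on each side of the TSS, was covered to 56.7%. By number, the 3 regions of Ilk made 0.184 regions per kb, at the 36th percentile. Of the 100 kb on each side of the gene, outside the window, 28.6% was inside regions.

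Ilk shares this stretch with other genes. The start of Rrp8, which encodes a nucleolar protein acting on ribosomal RNA genes, lies 784 bp inside the Ilk body on the opposite strand, within the same region of 9210 bp, and the body of Rrp8 was covered to 94.2%. The 3′ end of Ilk overlaps that of Taf10, which encodes a subunit of the general transcription factor TFIID. The body of Taf10 was covered to 52.4% and its TSS was outside regions. The third region of the Ilk window, of 3390 bp, began 9214 bp downstream of the TSS and lay over Tpp1, the gene of a lysosomal peptidase. A list of regions gives no strand, so the region over the starts of both Ilk and Rrp8 cannot be assigned to either gene.

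Lims1 (PINCH1) lies at chr10:57786214-57887439 on the plus strand and spans 101226 bp. Its window held 26 regions and was covered to 28.0%, at the 57th percentile of genes of like length. Its TSS window was covered to 52.3%, at the 84.5th percentile, and all bases within 1 kb of the TSS were inside a region. A region of 4650 bp ran from -1084 to +3565 bp over the TSS, with 222 exon bases and 32 coding bases. Regions also held the 5′ ends of a pair of downstream coding transcripts, 28652 and 48022 bp from the gene start, in regions of 900 and 690 bp. The starts 70907 and 70922 bp from the gene start were not covered. The longest region of the gene, 6990 bp, was intronic, from +38876 to +45865 bp.

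Coverage of Lims1 was concentrated in its 5′ part. Between the TSS and the midpoint of the gene 51.1% of the bases were inside regions, and from the midpoint to the 3′ end 8.12% were. The last 18370 bp of the gene held no region, a stretch longer than 97.8% of the gaps of the list, and neither did the 5 kb beyond it. Of the 14 exon blocks of Lims1, 9 lie in this last stretch and 3 were touched by a region. The Lims1 promoter, chr10:57785964-57786213 on the plus strand of mm9, is shown because all of its 250 bases were inside a region and it was the most GC-rich promoter of the 8 genes. Capitals again mark GGGCGG on either strand.
Lims1 promoter: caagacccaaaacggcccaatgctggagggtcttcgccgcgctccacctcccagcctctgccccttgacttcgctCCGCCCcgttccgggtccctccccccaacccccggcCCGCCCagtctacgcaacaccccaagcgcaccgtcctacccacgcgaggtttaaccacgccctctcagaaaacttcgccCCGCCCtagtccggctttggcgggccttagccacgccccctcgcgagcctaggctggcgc

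This Lims1 promoter held 3 GC boxes. Its GC content was 68.8%, at the 87.7th percentile of promoters of protein-coding genes, where the median was 54.0%. The ratio of observed to expected CpG was 0.932, at the 88.8th percentile. The other covered promoter, that of Ilk, had a GC content of 66.0% and no GC box, and an exon of Rrp8 overlaps it. The 6 promoters without coverage ranged from 46.4% (Parva) to 65.2% (Parvb).

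The Akt1 gene lies at chr12:113892032-113913095 on the minus strand. Its window held 11 regions with a covered share of 25.6%, at the 58.5th percentile, and 10 of the 11 were within the gene. Its TSS was in a stretch of 12480 bp without a region, longer than 93.9% of the gaps of the list, and none of the 4 annotated starts of coding transcripts was covered. The TSS window was covered to 2.10%, at the 11th percentile. That value came from 1 region of 210 bp, the shortest length in the list, in an intron at +4116 to +4325 bp. From there on the regions followed one another through the gene, the longest of 2490 bp at +5886 to +8375 bp. The 10 kb on each side of the TSS, upstream regions included, were covered to 18.9%, at the 45th percentile. Around the TSS most shared by its coding transcripts, the 5 kb on each side were covered to 5.10%, at the 19.5th percentile. By regions per kb Akt1 was at the 89th percentile in the gene body window. The regions had a median length of 420 bp. The side of the 50th percentile on which Akt1 lay depended on the setting, since with flanks of 10 kb it was at the 44th percentile.

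Next to Akt1, the upstream neighbour Zbtb42, which encodes a zinc finger protein, starts 3944 bp away on the other strand, and no base of its body was covered. The same was true of the downstream neighbour Siva1, the gene of an apoptosis regulator. The region nearest to the Akt1 start is shown as the one stretch within 5 kb of it that was listed, at chr12:113908770-113908979 on the minus strand of mm9. It lies in an intron and holds none of the 4 motifs searched, so no letter is in capitals.
Akt1 nearest region: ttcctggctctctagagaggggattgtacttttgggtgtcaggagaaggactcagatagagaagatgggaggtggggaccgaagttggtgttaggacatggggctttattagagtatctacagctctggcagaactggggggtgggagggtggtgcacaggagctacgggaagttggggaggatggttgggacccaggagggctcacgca

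**Figure D3:**
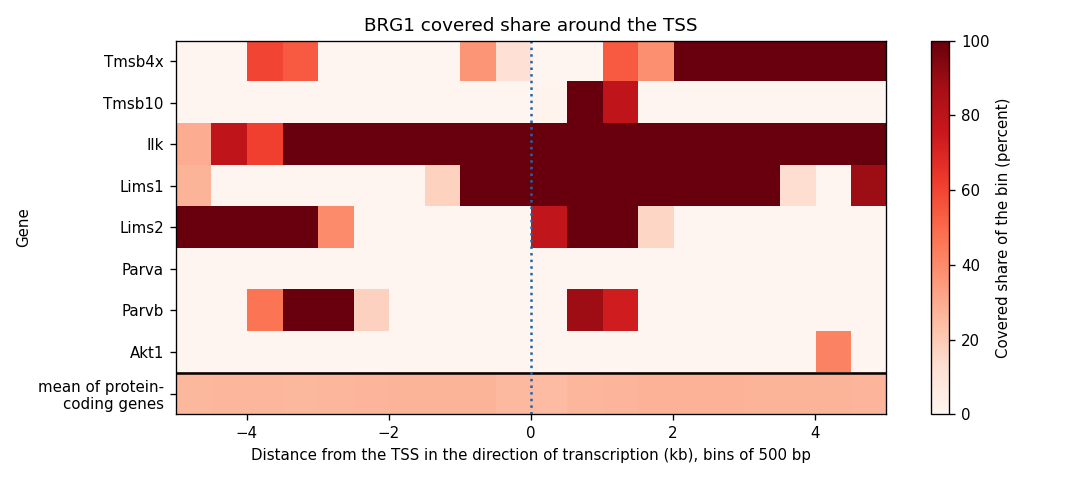
Covered share of bins of 500 bp from -5 to +5 kb around the TSS, one row a gene, with the mean over 22367 protein-coding genes as the bottom row. The color runs from 0 to 100 percent; the mean row stays between 24.8% and 27.7%, Ilk and Lims1 are covered across the TSS, and the row of Parva is empty.

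The parvins bind ILK and actin. Parva (alpha-parvin, the form found in most tissues) lies at chr7:119571019-119735206 on the plus strand and is the longest of the 8 genes, 164188 bp. No region lay within 5 kb of its TSS, a state shared by 10.1% of all annotated genes. The gap over the Parva TSS measured 20850 bp, longer than 98.5% of the gaps of the list, and ran from 9950 bp upstream to the first region at +10901 bp. Around its start Parva was thus at the 4.25th percentile of genes of like length, and it stayed at or below the 21.5th percentile under all 12 alternative settings tried for this window.

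Further into the gene, Parva held 35 regions. Its window was covered to 21.3%, at the 24th percentile. The longest regions were 6600 bp in an intron (+24041 to +30640 bp) and 4500 bp over a coding exon (+128711 to +133210 bp). Of 15 exon blocks 2 were touched. Exons were covered to 5.30% and introns to 22.9%.

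Parvb (beta-parvin, most abundant in heart and skeletal muscle) lies at chr15:84062473-84146118 on the plus strand. Its window held 17 regions and was covered to 16.2%. By covered share this was the lowest percentile of the 8 genes, 8.50. By regions per kb Parvb was at the 26.5th percentile, and Lims2 was the lowest, at 6.5. Of the 100 kb on each side of Parvb, outside the window, 32.4% was covered. The TSS window was at the 49.3th percentile with a covered share of 21.3%. A region of 1320 bp ended 2414 bp upstream of the Parvb TSS and one of 810 bp began 557 bp downstream, and neither reached it. The longest region, 4290 bp at +60017 to +64306 bp, held 175 coding bases.

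**Figure D4:**
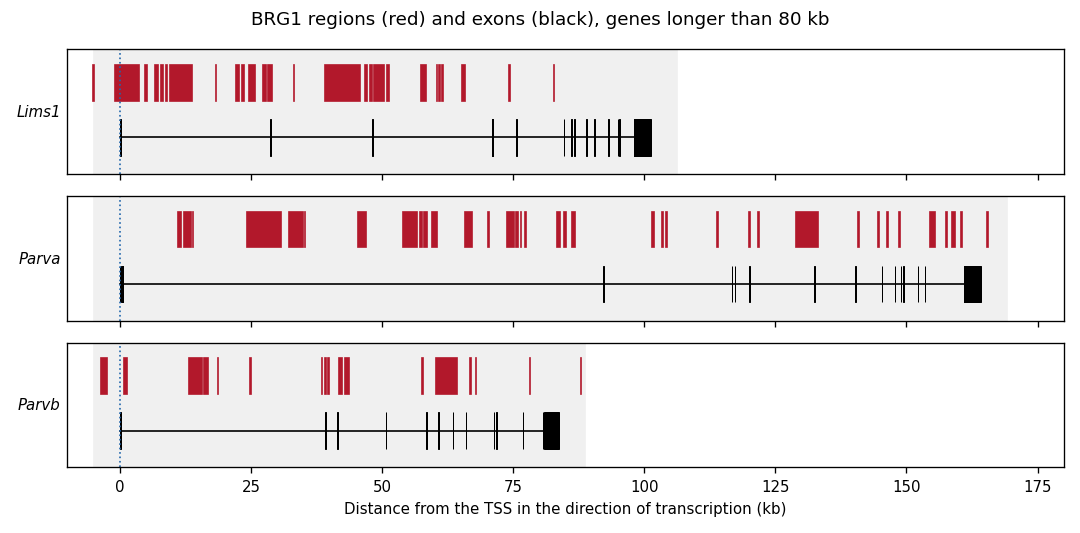
BRG1 regions (red, upper row) and exons of coding transcripts (black, lower row) of the 3 genes longer than 80 kb, drawn with a thin outline so that short ones show, by distance from the TSS in kb in the direction of transcription. Grey marks the gene body with 5 kb flanks and the dotted line the TSS; the regions of Lims1 gather in its 5′ part, with none in its last 18370 bp, and those of Parva begin at +10901 bp.

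Lims2 (PINCH2), at chr18:32091161-32118273 on the plus strand, differed from Lims1 in both windows. Its gene body window held 4 regions and was covered to 15.1%, at the 17th percentile. The TSS window was covered to 36.7%, at the 72nd percentile, but by regions per kb it was at the 35th. A region of 1470 bp began 109 bp downstream of the Lims2 TSS, in the first intron, and another of 3810 bp ended 2802 bp upstream. The TSS itself was in a gap of 2910 bp. Past a region of 1560 bp at +7609 to +9168 bp there was a stretch of 16890 bp without a region, which includes the whole of Gpr17, a receptor gene on the opposite strand within Lims2. As in Lims1, the 5′ part of the gene was the more covered, with 22.4% before the midpoint and 2.88% after it. Ilk and Parva had the same order, Tmsb4x, Tmsb10 and Parvb had the reverse, and Akt1 had 33.0% in each part. No such split was made over other genes.

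Within the family pairs, Tmsb4x exceeded Tmsb10 in both windows. That order turned without flanks (30.8% in Tmsb4x and 64.2% in Tmsb10), within 1 kb of the TSS (12.0% and 25.4%) and within 2 kb of it (17.6% and 22.5%). Lims1 exceeded Lims2 in both windows, and the parvins changed order, Parva being higher over the gene body (21.3% and 16.2%) and Parvb around the TSS (21.3% and 0%). With no replicate list, none of these differences has an error.

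The 8 windows held 104 regions. Of these, 77 were within introns alone, 12 were in flanks alone, and 13 touched coding exons. Their median length, 540 bp, was below the 600 bp of the whole list, and 50 of the 104 were longer than that. Over all protein-coding genes treated in the same way, 62.2% of the regions were within introns alone, 19.0% in flanks alone, and 15.2% touched coding exons.

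Introns had a higher covered share than exons in 7 of the 8 genes, such as 37.3% against 8.54% in Akt1, 30.7% against 7.94% in Lims1 and 93.0% against 71.1% in Ilk. Tmsb4x went the other way, with 27.7% of intron bases and 32.7% of exon bases covered. Of the 19447 protein-coding genes with introns, 51.1% had the higher share in introns, and over all protein-coding genes together 27.5% of intron bases and 26.6% of exon bases were covered. Among the 9711 protein-coding genes longer than 20 kb, as Lims1, Lims2, Parva, Parvb and Akt1 are, 58.0% had the higher share in introns. Of the remaining neighbours, the noncoding A230071N21Rik inside Parva was covered to 11.7%, a U6 snRNA gene inside Lims1 had no covered base, and the myosin gene Myo7b beyond the 3′ end of Lims2 was covered to 26.0%.

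Of the other beta thymosins, 3 of 4 were above the 50th percentile of genes of like length in the gene body window, and their median covered share was 40.8%, against 24.0% over all annotated genes. Tmsb15b1 was covered to 53.0%, Tmsb15b2 to 42.4% and Tmsb15l to 39.2%, whereas Tmsb15a had 3.25%. Tmsb15b1 and Tmsb15b2 each overlap the body of Tmsb15l on the X chromosome, so these 3 values share regions. Prep (prolyl oligopeptidase), which takes part in the release of a short N-terminal peptide from Tβ4, and Ace (angiotensin converting enzyme), which degrades that peptide, were covered to 17.4% and 22.9%, and 0 of these 2 genes was above the 50th percentile.

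In the list for actin monomer binding and turnover, 6 of 13 genes were above the 50th percentile of genes of like length, with a median covered share of 23.9%. The highest were the cofilins Cfl1 (69.0%) and Cfl2 (43.7%), which sever actin filaments. The lowest were the monomer-binding protein Twf2 (5.35%) and the cytoplasmic actin Actg1 (8.40%). Regions covered the TSS of 5 of the 13, Cfl1 and Cfl2 among them, where 24.7% of all annotated genes had a covered TSS.

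Among the integrin adhesion genes and adaptors, 8 of 15 were above the 50th percentile and the median covered share was 28.9%. Fermt2 (kindlin-2, an integrin activator) had 42.6% and the LIM adaptor Tgfb1i1 had 37.4%. Fermt3, the kindlin of blood cells, had 6.59% and Ilkap, a phosphatase that acts on ILK, had 18.7%. These last 2 genes had no region within 5 kb of their TSS, as Parva and 10.1% of all annotated genes had none. A TSS inside a region was found for 1 of the 15 genes, Rsu1, which encodes a partner of PINCH1 and was covered to 28.9%; it is named here after its value was seen. The share over all annotated genes was 24.7%.

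For the AKT pathway, 7 of 11 genes were above the 50th percentile, with a median covered share of 26.8%. The highest were the kinase Gsk3a (41.8%), a substrate of AKT, and Pdpk1 (37.9%), which phosphorylates AKT. The lowest were Akt2 (2.23%), the lowest among its 200 genes of like length, and the PI3-kinase catalytic subunit gene Pik3ca (15.5%). Over the gene body window Akt2 was thus far below Akt1 (25.6%), but around the TSS both were low, Akt2 with 2.70% and Akt1 with 2.10%.

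Taking the 45 listed genes as one set, 24 were above the 50th percentile of genes of like length in the gene body window and 22 in the TSS window. Their TSS lay inside a region in 11 of 45 cases (24.7% of all annotated genes), and 43 of 45 had a region within 5 kb (89.9% of all annotated genes). The median covered share was 26.8%, against 23.4% in the 8 genes and 24.0% in all annotated genes.

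**Figure D5:**
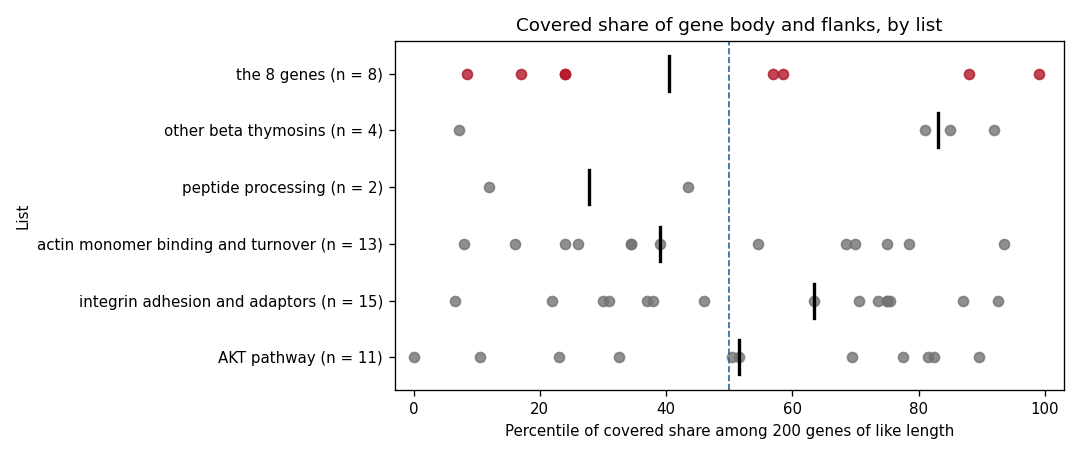
Percentile of covered share of the gene body with 5 kb flanks among the 200 genes nearest in length, for the 8 genes (red) and the genes of 5 related lists (grey), with the median of each list as a black bar and the 50th percentile dashed. Each list spreads widely; the 8 genes run from 8.50 (Parvb) to 99 (Ilk).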

How the data were processed

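The members, gene lists and comparisons were chosen with earlier results of these data known. The authors aligned reads to mm9 with Bowtie 1.0.0 and called regions of BRG1 over input with MACS2 2.0.10 (submitters' processing notes and study methods). The exact call is not known: the methods name the bdgcomp function, while the list is named like an output of bdgdiff, which compares conditions. How the 2 libraries were combined is not given in the sources used here. The deposited list holds start and end positions, with no signal, fold or p-value. Here, regions were counted where at least 1 base overlapped a window, and covered bases were summed, with Python 3.11.15 and numpy 2.4.6. This was tested on simulated data against bedtools 2.31.1. Sequences were read with pysam 0.24.0 from the mm9 genome, genes were taken from GENCODE M1, transcript matches from blastn 2.17.0, and plots were drawn with matplotlib 3.10.9. Percentiles count the genes of like length with a lower value, ties split evenly. Named were the 8 genes, their neighbours within 5 kb, and from each list the 2 highest and 2 lowest genes by covered share of the gene body window, or all of a list of 4 or fewer. Alternatives changed the flanks, the regions kept or joined, the TSS and the genes compared. No test was run, as no replicate values were used.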

Additional observations from a re-analysis of the deposited data

How the results depend on the processing

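The median covered share of the gene body windows, 23.4%, became 26.0% with regions within 500 bp joined, 17.6% with regions of at least the median length, 30.2% without flanks and 20.2% with flanks of 10 kb. That of the TSS windows, 29.0%, became 23.8% within 1 kb and 21.4% within 2 kb of the TSS. By regions per kb, 1 of the 8 genes (Tmsb4x) was strictly above the median of genes of like length in the TSS window, against 4 by covered share, and Ilk and Lims1 equalled it (2 and 3 regions). In checks added after the values were seen, 6 of the 8 genes were above that median within 1 kb of the TSS and 5 within 2 kb or from the most shared TSS, and for the gene body 5 without flanks and 3 with flanks of 10 kb, against 4 reported for each window. The other settings tried kept the counts of the 8 genes within 1.5 times the reported ones. Of the 8 genes, Lims1, Tmsb4x and Parva stayed on their side of the 50th percentile under every setting in both windows, Tmsb4x narrowly within 1 kb (51.5) and 2 kb (54) of the TSS. In the gene body window, Lims1 came near it among genes alike in GC content (52), and Parva by regions per kb (46.5). With ties split evenly, Ilk crossed or reached it by regions per kb in both windows (36 and 43.5), Tmsb10 without flanks (72) and within 1 kb of the TSS (51), Lims2 by regions per kb around the TSS (35), Akt1 under 3 settings of the gene body window and Parvb under 4 of the TSS window. No paired analysis was possible because the list names no replicate. The list gives no depth.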
